A study of Mus musculus with 2 samples.

Results

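Among the Aiolos peaks that lay at gene starts, 405 had their summit at or downstream of the annotated transcription start, out of 919 promoter peaks and 1404 peaks in all. Aiolos is the zinc finger protein encoded by Ikzf3, a member of the Ikaros family. A peak was counted as a promoter peak when the authors' annotation placed it within 1 kb of a start. The start was the 5′ end of the transcript that the authors assigned to the peak, and the summit is the base at which they found the highest signal. Positions below are in bp from that start unless another start is named, positive in the direction of transcription and negative before it. The members were thus chosen by the measured summit position, and positions are given as a description with no test.

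The peaks came from mouse natural killer (NK) cells from spleen, grown with interleukin-15 at 50 ng/ml, a cytokine on which NK cells depend, until each sample had 500000 cells or more. The assay was CUT&RUN, an assay in which a nuclease tethered by an antibody releases the DNA around a bound protein, and 2 libraries were made. In 1 library the antibody was against Aiolos, and the other had no primary antibody; the labels used here name no strain, genotype or age of the mice. Each group is a single library, so the values have no replicate error, and each interval below is a 95% interval for counting or for sampling of peaks. No expression data were analysed here, so the NK label could not be checked against expression of marker genes. Gzmb was the 1 of 9 NK marker genes with a downstream promoter peak. None was found at 6 T cell, 5 B cell, 5 myeloid and 4 type 1 innate lymphoid cell (ILC1) markers. Downstream peaks named 399 genes, beside 21900 protein-coding genes in the gene table, so counts of 0 in lists this short say nothing of cell type. Peaks of any class lay at 4 of 9 NK markers, at the T cell marker Cd5 and at the ILC1 marker Itga1.

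Ikaros family proteins bind DNA through zinc fingers that recognise a GGGAA core, preferentially as TGGGAA, and act largely through chromatin complexes that remodel nucleosomes or remove histone acetylation. At an active mammalian gene, a stretch just before the start is kept free of nucleosomes, and the first nucleosome of the gene sits a little way inside it. Many mammalian promoters are divergent, with a second gene that starts nearby and runs the other way, so that DNA inside one gene can lie in front of another. DNA just after the start usually belongs to the first exon.

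The sequences before the starts of some of the strongest of these genes are shown to let the motif results below be read on the bases. The lines, chosen after the values were seen, each give 250 bases before the RefSeq start and 30 bases from it, on the GRCm38.p6 build (the assembly of mm10) and on the strand of the gene, taken from RefSeq. Capitals mark GGGAA, the Ikaros core, or its reverse complement TTCCC, and TGACGT, the core of the cyclic AMP response element (CRE), or its reverse complement ACGTCA. Fntb, Slc35f5, Coa7 and Snapc5 are the strongest members whose window held TGACGT, Garnl3 and Prdm10 are, with Coa7, among the strongest with TGGGAA or its reverse complement, and Erh is the strongest without TGACGT.
Fntb, chr12:76837217-76837496, plus strand: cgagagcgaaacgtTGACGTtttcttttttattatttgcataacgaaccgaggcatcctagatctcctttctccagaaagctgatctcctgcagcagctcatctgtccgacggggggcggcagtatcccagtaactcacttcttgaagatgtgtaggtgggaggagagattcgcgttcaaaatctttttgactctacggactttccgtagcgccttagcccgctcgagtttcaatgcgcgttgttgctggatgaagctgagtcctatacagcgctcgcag
Slc35f5, chr1:125560345-125560624, plus strand: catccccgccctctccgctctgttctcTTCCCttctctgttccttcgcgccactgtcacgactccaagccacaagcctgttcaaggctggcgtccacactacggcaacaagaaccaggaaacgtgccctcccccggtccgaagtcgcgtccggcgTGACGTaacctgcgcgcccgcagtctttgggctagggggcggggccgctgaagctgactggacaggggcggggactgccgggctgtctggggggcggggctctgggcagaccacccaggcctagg
Coa7, chr4:108327902-108328181, plus strand: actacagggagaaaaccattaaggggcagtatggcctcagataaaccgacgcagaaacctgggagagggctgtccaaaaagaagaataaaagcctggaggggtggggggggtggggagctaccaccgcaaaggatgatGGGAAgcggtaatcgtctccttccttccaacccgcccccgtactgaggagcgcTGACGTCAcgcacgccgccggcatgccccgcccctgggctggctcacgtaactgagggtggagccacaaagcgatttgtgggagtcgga
Snapc5, chr9:64179047-64179326, plus strand: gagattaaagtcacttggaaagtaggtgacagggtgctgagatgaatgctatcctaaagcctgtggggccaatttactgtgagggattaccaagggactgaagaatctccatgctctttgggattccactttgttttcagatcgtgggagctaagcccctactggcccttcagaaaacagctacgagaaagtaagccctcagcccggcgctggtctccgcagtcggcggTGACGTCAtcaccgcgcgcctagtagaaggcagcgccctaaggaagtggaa
Garnl3, chr2:33131407-33131686, minus strand: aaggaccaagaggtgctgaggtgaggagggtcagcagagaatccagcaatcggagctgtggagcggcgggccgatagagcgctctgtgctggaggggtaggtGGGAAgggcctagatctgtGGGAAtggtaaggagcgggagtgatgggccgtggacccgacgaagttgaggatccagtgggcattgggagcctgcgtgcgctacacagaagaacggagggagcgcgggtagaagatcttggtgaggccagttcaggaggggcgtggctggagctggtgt
Prdm10, chr9:31280299-31280578, plus strand: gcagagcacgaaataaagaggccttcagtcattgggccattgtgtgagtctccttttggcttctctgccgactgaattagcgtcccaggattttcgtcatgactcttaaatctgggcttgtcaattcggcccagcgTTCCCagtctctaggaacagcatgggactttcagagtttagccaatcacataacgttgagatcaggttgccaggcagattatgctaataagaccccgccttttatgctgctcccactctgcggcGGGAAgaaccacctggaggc
Erh, chr12:80644082-80644361, minus strand: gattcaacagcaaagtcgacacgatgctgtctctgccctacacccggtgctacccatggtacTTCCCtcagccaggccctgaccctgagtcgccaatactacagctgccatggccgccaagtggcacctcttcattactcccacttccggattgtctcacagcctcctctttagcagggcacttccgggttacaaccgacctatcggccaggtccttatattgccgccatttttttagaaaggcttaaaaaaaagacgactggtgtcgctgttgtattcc

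Positions in these lines are from the RefSeq start of each line, which can differ from the authors' start. Coa7 and Snapc5 carried the whole palindrome TGACGTCA, the first base of which lay at -59 in Coa7 and at -21 in Snapc5. Slc35f5 carried TGACGT at -95 and Fntb at -236. Garnl3 had 2 copies of TGGGAA, Coa7 had 1, and Prdm10 had its reverse complement at -114 beside a GGGAA at 10. The summits lie past the right end of every line, at 128 for Slc35f5, 82 for Erh and 79 for Prdm10, for example. The lines thus show what preceded the signal and not the DNA under its highest point.

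The downstream summits sat close to the start. Their median position was 111 (95% interval 99 to 121), with quartiles at 67 and 171 and a range of 2 to 1193. The stretch from 50 to under 150 held 208 of the 405 summits (51.4%), the first 50 bp held 66, and 61 lay at 300 or beyond. The other side was spread more widely: the 514 upstream summits had a median of -226 with quartiles at -343 and -141. The side next to the start was thinly filled, with 43 summits between -100 and -26.

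**Figure D1:**
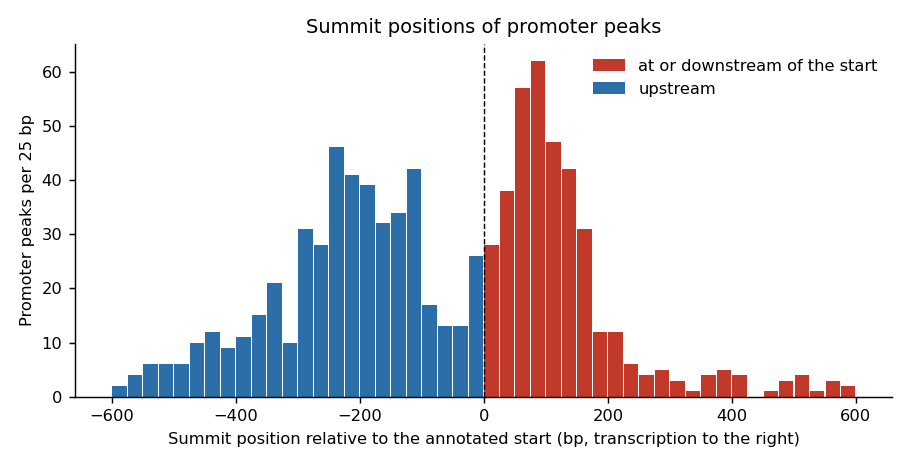
Number of promoter peaks per 25 bp (y axis) by summit position relative to the annotated start in bp (x axis), with downstream summits in red and upstream summits in blue; 30 downstream and 40 upstream summits beyond 600 bp are not drawn. The downstream summits are most frequent from 50 to under 150, and few summits lie between -100 and -26.

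The values of the peaks nearest the limit overlapped between its 2 sides. Just inside were Nrd1, a metallopeptidase gene, at position 2 with 7.47-fold enrichment, and Ankib1, Napa and the long non-coding RNA Zfas1 at position 3 with 5.06-, 5.05- and 6.57-fold. Just outside were Hnrnph3 and Rpl7 at -3 with 5.06- and 7.59-fold, and Stat3 and Lrrc41 at -5 with 5.21- and 4.41-fold. Each rested on 5 to 11 sequence tags. The farthest members were Nfic, a CCAAT-binding factor gene, with its summit at 1193, Pfn1, the actin-binding profilin, at 1176, and the linker histone gene H1f5 at 1031, whose nearer edges lay at 805, 856 and 871.

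Most downstream peaks reached back over the start. Of the 405, 291 covered it (71.9%, exact Clopper-Pearson interval 67.2 to 76.2), against 187 of the 514 upstream peaks (36.4%, 32.2 to 40.7). A peak with a nearer summit has less far to reach: 62 of 66 peaks with a summit in the first 50 bp did so, 66 of 89 from 100 to under 150, and 11 of 61 at 300 or beyond. The typical downstream peak ran from -24 to 235, taking the medians of the edges, and the typical upstream peak from -368 to -63.

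**Figure D2:**
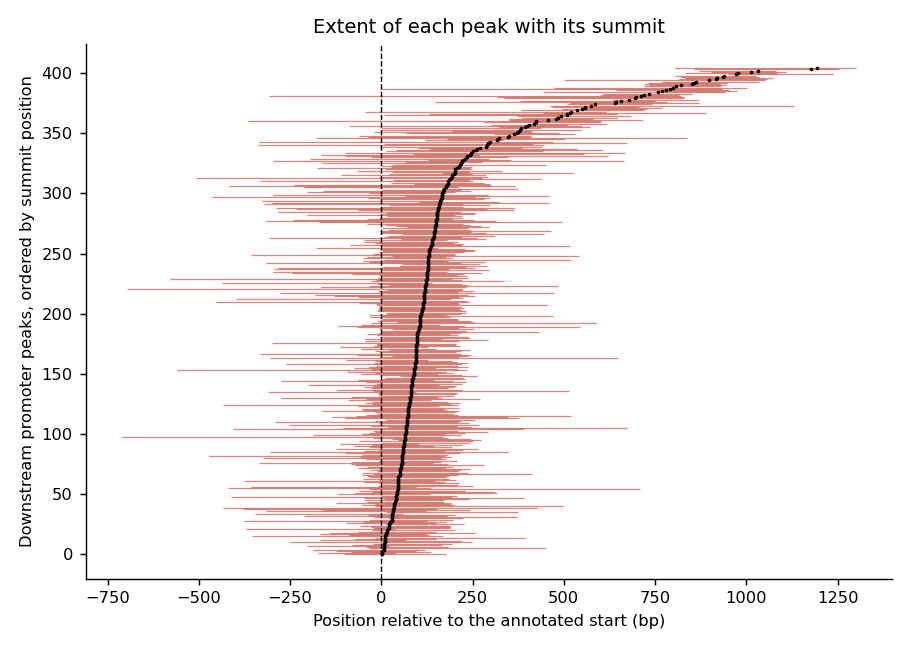
Extent of each of the 405 downstream promoter peaks (red lines, x axis in bp from the annotated start) with its summit (black points), ordered by summit position (y axis). The dashed line is the start, which 291 of the peaks cover.

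The downstream peaks had a median width of 255 bp (95% interval 246 to 275, quartiles 224 and 434, widest 1131). It was 285.5 bp (258 to 306, quartiles 225 and 449) for upstream peaks, and the 2 intervals overlapped. The 485 peaks not annotated within 1 kb of a start had a median of 264 bp (253 to 282). With sides set by the peak centre, the medians were 248 bp (239 to 257) downstream and 303 bp (279 to 333) upstream. Among peaks whose -log10 q reached the median, they were 254.5 bp (247 to 268) and 297.5 bp (272 to 339). In these settings the intervals did not overlap. In every other setting tried they did, as among peaks above the median fold (248 to 275 and 271 to 339). With the nearest RefSeq start they were 239 to 265 and 264 to 320. The downstream median was the smaller in each setting. At most 260 bp were spanned by 210 downstream peaks (51.9%) and 237 upstream peaks (46.1%), and over 400 bp by 30.4% and 31.5%. Among peaks that covered the start, the median was 272 bp for downstream and 399 bp for upstream summits. Among those that did not, it was 238 and 244 bp. Covering the start depends on the summit position, which the choice of members used. Upstream summits lay farther from the start and need a wider peak to reach it, so this split does not compare widths at like distances. The widest members were Klf11, a Krüppel-like factor gene (1131 bp, from -309 to 821), Midn, which encodes a nuclear protein that delivers proteins to the proteasome (1017 bp), and Cic, a transcriptional repressor gene (968 bp). These 3 were not among the strongest, with 6.63-fold for Klf11, 7.60-fold for Midn and 9-fold for Cic.

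Strength overlapped widely between the sides. The fold enrichment, which is the authors' value for each peak and compares the tags at the summit with the local background, had a median of 6.73 downstream (95% interval 6.44 to 6.84, quartiles 5.58 and 8.43, range 3.63 to 17.7) and of 6.47 upstream (6.32 to 6.75, quartiles 5.41 and 8.20, range 3.63 to 23.3). The medians differed by 0.057 on the log2 scale, and their intervals overlapped. The 485 peaks not annotated within 1 kb of a start had a median of 5.90. Among the 50 strongest promoter peaks 23 were downstream (46.0%, exact interval 31.8 to 60.7) and among the strongest 100, 43 were, beside a downstream share of 44.1% (40.8 to 47.3) of all promoter peaks. Peaks of 1 library are features and not replicates, so no test was made.

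Within the downstream side, the median fold was highest in the interval that held most summits. Fold enrichment had a median of 6.25 (5.68 to 6.89) in the first 50 bp and of 7.24 (6.73 to 7.98) from 50 to under 100. It was 6.75 (6.31 to 7.23) from 100 to under 150 and 6.94 (5.87 to 8.43) from 150 to under 200. From 200 to under 300 it was 6.44 (4.93 to 8.05), and at 300 or beyond 5.99 (5.68 to 6.75). Neighbouring intervals overlapped. Across the 405 peaks, fold and distance had a Spearman rho of -0.050 and fold and width one of 0.13, values that share the same tags and are given as descriptions. On the upstream side the median was 5.90 under 50 bp away, 5.63 (5.06 to 5.80) from 50 to under 100 bp away and 5.90 from 100 to under 150 bp away. It was 7.37 (6.50 to 7.83) from 150 to under 200 bp away, the highest of either side. From 200 to under 300 bp away it was 6.75 (6.31 to 7.41), and at 300 bp or more 6.75 (6.44 to 7.17).

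**Figure D3:**
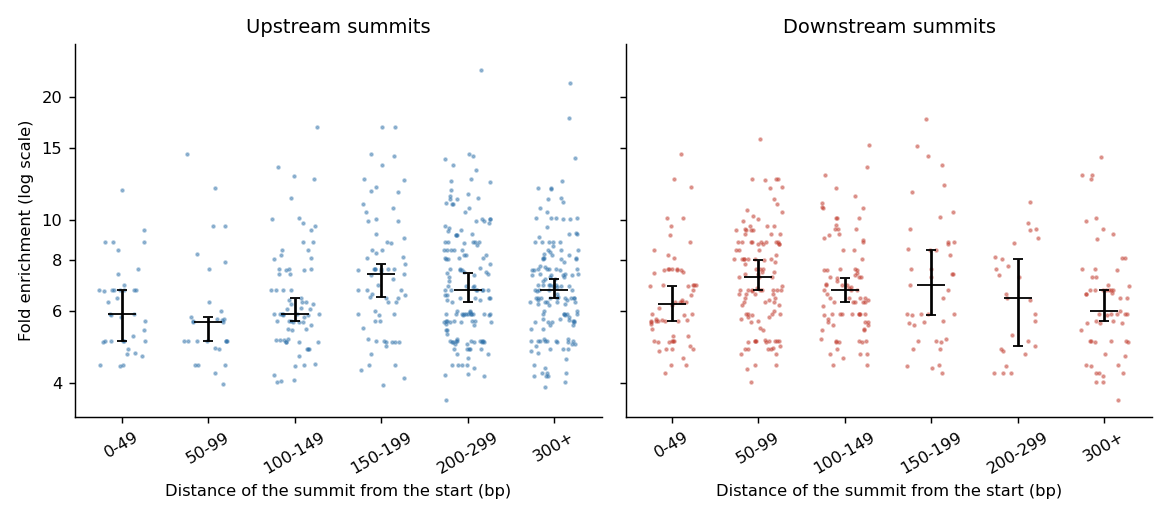
Fold enrichment on a log scale (y axis) by distance of the summit from the start in bp (x axis), for upstream (left, blue) and downstream (right, red) promoter peaks; each point is a peak, and the black bar and whiskers are the median and its 95% interval. The downstream medians run from 5.99 to 7.24 and the upstream medians from 5.63 to 7.37.

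Few tags stood behind each value. The number of tags at the summit, recovered from the authors' fold and p-value, had a median of 9 downstream (range 4 to 35) and 8.5 upstream, and 274 of 405 downstream peaks (67.7%) rested on 10 tags or fewer. The background was at its floor of 0.186 tags for 102 of the 405 (25.2%) and for 118 of the 514. Because whole tags were set against few background levels, the 405 peaks took only 141 distinct fold values, and 24 of them shared a fold of 5.90. The member with the most tags, 35, was the pseudogene Pisd-ps3 on an unplaced sequence, where the background was also 6.30 tags, so that its fold was 4.93 (exact Poisson counting interval 3.47 to 6.80).

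The strongest downstream peaks are those of 17 genes, the top 15 and 2 that tied with the last of them. The peak of Fntb, the beta subunit of protein farnesyltransferase, had its summit at 164 and ran from -2 to 282 (chr12:76837431-76837715, 17.7-fold, counting interval 11.1 to 26.9, 20 tags). That of Erh, a small conserved protein of splicing and mitosis, had its summit at 82 and ran from -48 to 200 (chr12:80643911-80644159, 15.8-fold, 10.3 to 23.2, 24 tags). Slc35f5, a member of the nucleotide sugar transporter family, had its summit at 128 and Atf7, a bZIP transcription factor related to ATF2, at 183, where the peak reached back to -333. Coa7, which takes part in assembling cytochrome c oxidase, had its summit at 193 (14.3-fold, 8.56 to 22.8). The intervals of Fntb and Coa7 overlapped, so the order of these genes was not resolved.

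The next members differed more in where the signal lay. Cryzl1, a quinone reductase-like gene, had its summit at 13 with 14.5-fold enrichment. Med16, a Mediator subunit, had its summit at 381 with the peak running from -1 to 546 (14.3-fold, 22 tags). Ruvbl2, an ATPase of the INO80 and TIP60 chromatin complexes, had a narrow peak that began at 11 (13.7-fold). The RNA helicase gene Ddx5 had its summit at 126, whereas Gm12216, a long non-coding RNA, and Garnl3 had theirs at 575 and 509, each with 12.9-fold enrichment. Slc35b1, Unk, Aco1, Kdm4a and Dcaf1 tied at 12.6-fold (7.30 to 20.7, 14 tags each). Aco1 is the cytosolic aconitase that doubles as an iron sensor, Kdm4a a histone demethylase and Dcaf1 a substrate receptor of a ubiquitin ligase. Their summits lay at 71, 47, 59, 98 and 800, and 11 of the 17 strongest lay from 50 to under 200. The ninth, at Mir6992 with 13.5-fold, is a peak at a microRNA annotation; on the same strand, Stx5a, a Golgi syntaxin gene, also starts within 1000 bp.

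Most members were protein-coding genes. Of the 405 peaks 376 were assigned to one (92.8%, exact interval 89.9 to 95.2), beside 491 of 514 upstream (95.5%, 93.4 to 97.1). The other 29 were at 21 long non-coding RNA, 4 transcribed pseudogene, 2 microRNA and 2 small nuclear RNA annotations. Several of the non-coding members pair with a coding gene that starts on the opposite strand: Gm20337 with the splicing factor gene Srsf5, 9230114K14Rik with the helicase gene Dhx15, and BC037704 with the mitochondrial iron carrier gene Slc25a28. The 405 peaks named 399 genes, of which Crem, Dhrsx, Fntb, Ogdh, Per1 and Smarca2 had 2 downstream promoter peaks each.

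Some downstream summits of one gene were upstream positions of another. A RefSeq start of a different gene on the opposite strand lay within 1000 bp of the annotated start for 116 of the 405 peaks (28.6%, exact interval 24.3 to 33.3) and for 122 of the 514 upstream peaks (23.7%, 20.1 to 27.7). In 92 of those 116 the opposite gene started before the annotated one, and the choice of members then places the summit before the start of the opposite gene as well. In 4 more the summit lay beyond an opposite start inside the gene, and so also before it. Over all 116 the median position from the opposite start was -264. In the other 20 of the 116 the summit lay inside both genes. The median fold was 6.94 with such a neighbour and 6.44 without one.

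Examples show both arrangements. At the divergent pair of Erh and the zinc transporter gene Slc39a9, the opposite start lay at -104, so the summit was at 82 for Erh and at -186 for Slc39a9. The summit for Tap1, which carries peptides into the endoplasmic reticulum for antigen presentation, lay at 96 with 8.75-fold enrichment (5.37 to 13.6, 18 tags). Its neighbour Psmb9, an immunoproteasome subunit, starts at -223, so the same summit lay at -319 for Psmb9. Srp54a, Hdlbp and Ruvbl2 had divergent neighbours in the same way, 2700097O09Rik, Septin2 and Gys1. The summit at 34 of Mkks, a chaperonin-like gene, lay between its start and that of Slx4ip at 164, and so 130 bp inside Slx4ip as well.

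The side also depended on which start of a gene was used. For 337 of the 405 peaks the promoter table held a start of the same gene on the same strand. The summit was at or after the nearest of these in 263 and before it in 74 (22%, exact interval 17.7 to 26.8). Where the nearest RefSeq start to the authors' start was within 50 bp of it, 8 of 194 changed side, and where it was farther away, 66 of 143 did. Of upstream peaks, 40 of 433 changed to the other side. Among the 17 strongest members, Cryzl1, Ruvbl2, Garnl3, Slc35b1 and Aco1 were upstream of the nearest RefSeq start, by positions of -160, -9, -308, -93 and -125. The 74 peaks that changed side had a median fold of 6.89, and the 263 that did not had 6.75.

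Another group of genes had summits on both sides. There were 15 such genes with 19 pairs of an upstream and a downstream peak, and in 5 pairs both peaks were measured from the same start. In H4c14, a histone H4 gene, the downstream peak at 145 had 6.94-fold enrichment and the upstream peak at -194 had 9.96-fold, with the summits 339 bp apart. In Trim41, a ubiquitin ligase, the peaks at 116 and -905 had 10.7- and 6.50-fold. In Per1, a core gene of the circadian clock with 4 promoter peaks, the downstream peaks lay at 80 (8.05-fold) and 95 (7.61-fold) from different starts, and the start of the latter also had a peak at -431 (4.98-fold). The histone genes H4c1 and H2bc14 had their downstream summits farther out, at 807 and 363, with 4.69- and 4.02-fold against 9.30- and 6.44-fold upstream. Of the 5 same-start pairs the downstream peak was the stronger in 2 and the weaker in 3, and the counting intervals of the 2 peaks overlapped in all 5. Histone genes are near-identical copies, so tags could have been placed at the wrong copy, and the labels used here do not say how such reads were treated.

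Gene classes were compared by how many genes of 19 lists had a summit on each side, out of 399 genes downstream and 505 upstream. Some counts leaned to the downstream side. Zfp-named zinc finger genes had 16 genes downstream (4.01% of the genes on that side) and 11 upstream (2.18%). Mitochondrial ribosome and respiration genes had 9 (2.26%) and 4 (0.792%). NK receptors, cytokines and killing genes had 3 and 0. These lists hold 400, 191 and 68 of the 21900 protein-coding genes, in that order. For Zfp-named and mitochondrial genes the upstream share was the nearer to the list's share of protein-coding genes. The NK count was 2 and 1 both with the nearest RefSeq start and with the peak centre. All promoter peaks split into 405 downstream and 514 upstream from the annotated start. The split was 384 and 535 with the peak centre and 303 and 467 with the RefSeq start. Among peaks whose -log10 q reached the median it was 228 and 278. List counts under these settings, here and below, are to be read beside these totals. No test was made of these counts.

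The zinc finger genes were typical in strength. Their median fold was 6.53, and 8 of the 16 lay above the median of all downstream peaks. The highest was Zfp60 at 9.53-fold (5.28 to 16.1), with its summit at 133, followed by Zfp959, Zfp809 and Zfp438 at 8.43-fold each, with summits at 114, 95 and 180. All 16 summits lay from 72 to under 200. One of the 16, Zfp36l2, is an mRNA decay factor of another zinc finger type that shares the prefix, and Zfp389 is annotated as a transcribed pseudogene. With the RefSeq start in place of the authors' start, the counts were 11 downstream and 10 upstream, and with the peak centre in place of the summit 14 and 13.

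Mitochondrial members were led by Coa7. Below it came Mrpl54 and Mrps18b, proteins of the mitochondrial ribosome, at 6.95- and 6.75-fold with summits at 143 and 121. Cycs, the cytochrome c gene, had 6.60-fold at 220, and Ndufb11 and Ndufs7, subunits of respiratory complex I, had 5.90- and 5.87-fold. The remaining members were Mrps11 (5.68-fold), Coa6 (4.40-fold) and Mrpl57 (4.15-fold). With the RefSeq start the counts were 6 and 5.

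The 3 NK genes had moderate peaks. Klre1, an NK cell receptor of the C-type lectin family, had its summit at 128 on chr6:129577962-129578176 (6.97-fold, 3.45 to 13.0, 8 tags), and that summit lay at -180 from the nearest RefSeq start. Csf2, the cytokine GM-CSF, had its summit at 99 on chr11:54249430-54249668 (6.44-fold, 3.07 to 12.4, 7 tags). Gzmb, the protease granzyme B of cytotoxic granules, had its summit at 122 on chr14:56262122-56262697, in a peak of 576 bp that ran from -437 to 138 (6.17-fold, 3.68 to 9.79, 16 tags). Of the 68 genes of the list these were the ones with a promoter peak.

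Other counts leaned upstream. Kinases and phosphatases had 5 genes downstream (1.25%) and 22 upstream (4.36%). The list holds 282 of the 21900 protein-coding genes, a share near the downstream one. The downstream members were Ptpn7, a tyrosine phosphatase of lymphocytes (8.83-fold, summit at 45), Cdk2ap2, which is a binding partner of a kinase and not a kinase (8.80-fold), Map3k6 (7.57-fold), Map4k1, the haematopoietic kinase HPK1 (6.44-fold, at 162), and Ppp2r5c (5.90-fold). The counts were 6 and 14 with the RefSeq start, 6 and 21 with the peak centre, and 4 and 15 among peaks whose -log10 q reached the median. Immediate-early and feedback genes had 1 downstream, Zfp36l2 (5.06-fold, at 72), and 7 upstream (1 and 4 with the RefSeq start), among them Klf10, Zfp36l1 and Dusp1 at -271, -239 and -230. Translation initiation and elongation factors had 0 and 4. The immediate-early and translation lists hold 30 and 71 protein-coding genes.

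Most of the remaining lists were closer in their counts from the annotated start. Ubiquitin and proteasome genes (2.51% downstream, 3.37% upstream) and histone genes (2.26% and 2.97%) were not, with more genes upstream. Several counts shifted under another setting, where the totals of the 2 sides differed as well. Lymphocyte transcription factors had 5 genes downstream and 4 upstream. Relb, a non-canonical NF-kB subunit, was the highest with 9.67-fold (6.09 to 14.7, 20 tags) and its summit at 75. Irf2, an interferon regulatory factor needed by NK cells, had 7.57-fold at 11, Runx3 7.24-fold at 115, Irf8 5.13-fold at 131 and Nfatc3 5.05-fold at 509. The bZIP genes had 4 and 5, which were 3 and 7 with the peak centre and 2 and 6 with the RefSeq start. Beside Atf7 they were Atf4, the effector of the integrated stress response, with 8.85-fold at 55, Tef with 5.38-fold at 87 over a background of 2.34 tags, and Crem, a CRE-binding repressor and activator, with peaks of 5.05- and 4.35-fold. The AP-1 genes Fosb and Junb had their promoter summits upstream, at -124 and -81.

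Splicing and RNA-binding genes had 13 on each side, and 8 and 15 with the RefSeq start, led downstream by Ddx5, Luc7l2 (10.1-fold, at 394) and Rbm15 (9.84-fold, at 261). Srsf1 and U2af2, which define splice sites, had 8.05-fold each at 99 and 81. Ubiquitin and proteasome genes had 10 and 17 (7 and 19 with the peak centre, 5 and 12 with the RefSeq start), with Trim41, Fbxl15 (9.66-fold) and Usp48 (9.47-fold) the highest downstream. Histone genes had 9 and 15, and 4 and 13 among peaks whose -log10 q reached the median, with H3c3, H4c14 and H1f5 at 7.24-, 6.94- and 6.75-fold. Vesicle trafficking genes had 9 and 8, and 6 and 11 with the peak centre and 5 and 9 with the RefSeq start, led by the sorting nexin Snx15 (10.1-fold, at 53), and general transcription genes 7 and 5, led by Med16 and the Integrator subunit Ints13 (10.2-fold, at 183). Chromatin genes had 6 and 9, and 4 and 11 with the peak centre, with Kdm4a, the BAF subunit Brd9 (7.37-fold, at 169) and the remodeller Smarca2 (6.60-fold, at 58) the highest.

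Smaller lists gave small counts. The cell death list had 2 genes downstream and 1 upstream. Bcl2l1, which encodes the survival protein BCL-XL, had 9.53-fold (5.28 to 16.1) at 186, and Cflar, the inhibitor of caspase-8, had 9.28-fold (4.89 to 16.4) at 897. Cell cycle genes had 3 and 4: the replication clamp Pcna (7.24-fold, at 153), the inhibitor Cdkn1b (6.31-fold, at 85) and the helicase subunit Mcm7 (5.60-fold, at 152). Cytosolic ribosomal protein genes had 3 and 5, with Rps9 (9.46-fold, at 61), Rpl39 (7.59-fold, at 42) and Rpl31 (5.75-fold, at 20). Solute carriers had 4 and 4, which were 1 and 6 with the RefSeq start. DNA repair and replication genes had 4 and 5, which were 2 and 6 with the RefSeq start; downstream, Ercc1, Parp16, Rad51c and Fancd2 all lay below 6-fold.

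**Figure D4:**
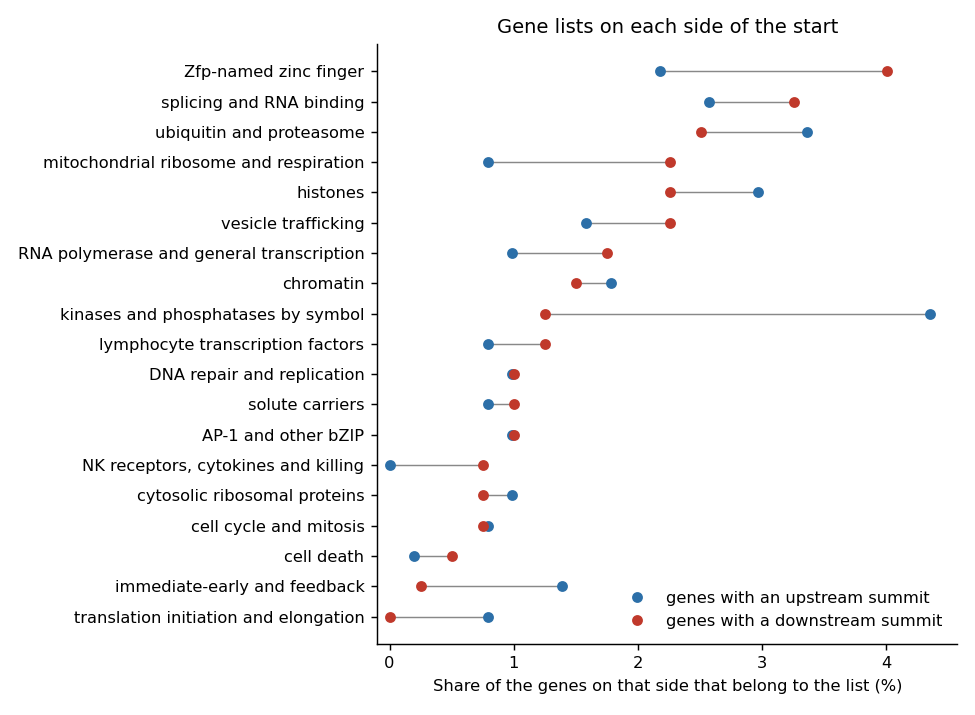
Share of the genes with a promoter summit on a given side that belong to each of 19 gene lists, in percent (x axis), for downstream (red) and upstream (blue) summits. The widest gaps are at kinases and phosphatases (1.25% downstream, 4.36% upstream), Zfp-named genes (4.01% and 2.18%) and mitochondrial genes (2.26% and 0.792%).

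The promoter sequences of these genes were rich in CpG. A RefSeq window from 250 bases before a start to 50 after it matched within 50 bp for 194 downstream peaks and for 291 windows on the upstream side. The median GC content was 59.5% (95% interval 58.0 to 60.7) downstream and 61.0% upstream, against 56.3% over the 21263 windows of protein-coding genes. The ratio of observed to expected CpG had medians of 0.809 downstream, 0.827 upstream and 0.567 over protein-coding windows. TATAAA was held by 5.15% of downstream, 9.62% of upstream and 12.6% of protein-coding windows.

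Of 11 motifs searched on both strands, TGACGT was the one whose intervals on the 2 sides did not overlap. It was found in 47 of 194 downstream windows (24.2%, exact interval 18.4 to 30.9), in 33 of 291 upstream windows (11.3%, 7.94 to 15.6) and in 8.49% of protein-coding windows. The whole palindrome TGACGTCA was in 17 downstream windows (8.76%, 5.19 to 13.7) and 9 upstream windows (3.09%, 1.42 to 5.79). This motif was singled out after its values were seen, and genes are not replicates, so the intervals describe sampling of windows only. The share was 24.4% (17.0 to 33.1) downstream and 11.5% (6.84 to 17.8) upstream among peaks whose -log10 q reached the median. Among peaks above the median fold it was 24.3% (16.8 to 33.2) and 12.3% (7.34 to 19.0). When sides were set by the peak centre it was 21.7% (16.01 to 28.4) and 13.3% (9.70 to 17.7). In each of these settings the intervals of the sides overlapped. They stayed apart without summits within 25 bp of the start (18.6 to 31.7 and 8.25 to 16.2) and with the nearest RefSeq start (18.8 to 31.5 and 7.83 to 15.4).

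Most TGACGT matches lay before the RefSeq start, from which their positions are given here. The windows hold 250 bases before the start and 50 after it, so most of the searched bases lie before it as well. Among downstream windows there were 75 matches, with the palindrome counted once on each strand, at a median position of -51 with quartiles at -108 and -24, and 33 of them (44.0%) lay in the last 50 bases before the start and 4 at or after it. The upstream windows had 51 matches at a median of -69. The share of windows with a match was 30.8% (exact interval 14.3 to 51.8) for downstream summits in the first 50 bp, 21.7% from 50 to under 100, 22.2% from 100 to under 150, 28.1% from 150 to under 300 and 22.7% at 300 or beyond. Downstream peaks with and without a match had median folds of 6.85 and 6.75. Members with the whole palindrome included Coa7, Snapc5 (a subunit of the small nuclear RNA activating complex, 12.2-fold), Rps9, Cycs, Ogdh, H4c1, H4c8 and H2ac11. Those with TGACGT alone included Per1, Hk2 (the hexokinase of glycolysis, 7.24-fold) and Sin3a, the scaffold of a histone deacetylase complex.

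Ikaros motifs were near their background. TGGGAA was in 58 of 194 downstream windows (29.9%, exact interval 23.5 to 36.9), in 21.3% of upstream windows (16.7 to 26.5) and in 24.5% of protein-coding windows. The shorter GGGAA, which TGGGAA contains, was in 69.1%, 65.3% and 63.0%. The intervals of the sides overlapped for both. Since the windows end 50 bases after the start, most downstream summits lie outside them. For 53 downstream and 152 upstream peaks some RefSeq window, of the same or of another gene, held the 50 bases on each side of the summit. A summit so held lies before the start of that window. The 53 thus do not stand for downstream summits in general. GGGAA was in 35.8% (23.1 to 50.2) of those stretches downstream, in 33.6% upstream and in 27.5% of stretches of the same length at the end of all 32851 windows. The latter reach past the start, so they are not matched to the summit stretches in position.

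Other promoter motifs were found at similar rates on the 2 sides, with overlapping intervals. CCAAT, the NF-Y site, was in 52.6% of windows on each side and in 38.2% of protein-coding windows. GGGCGG, the SP and KLF site, was in 66.0% downstream and 71.1% upstream against 46.2%. CCGGAA, the ETS core, was in 24.7% and 26.8% against 18.7%. GCATGCG, the NRF1 core, was in 11.9% and 7.56% against 4.44%, and CACGTG, the E-box, in 14.9% and 11% against 7.84%. AAGATGG, the YY1 core, was in 7.22% and 7.56% against 6.24%, and TGANTCA, the AP-1 site, in 4.64% and 5.84% against 6.99%. A match is a string of letters and not a measured site.

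**Figure D5:**
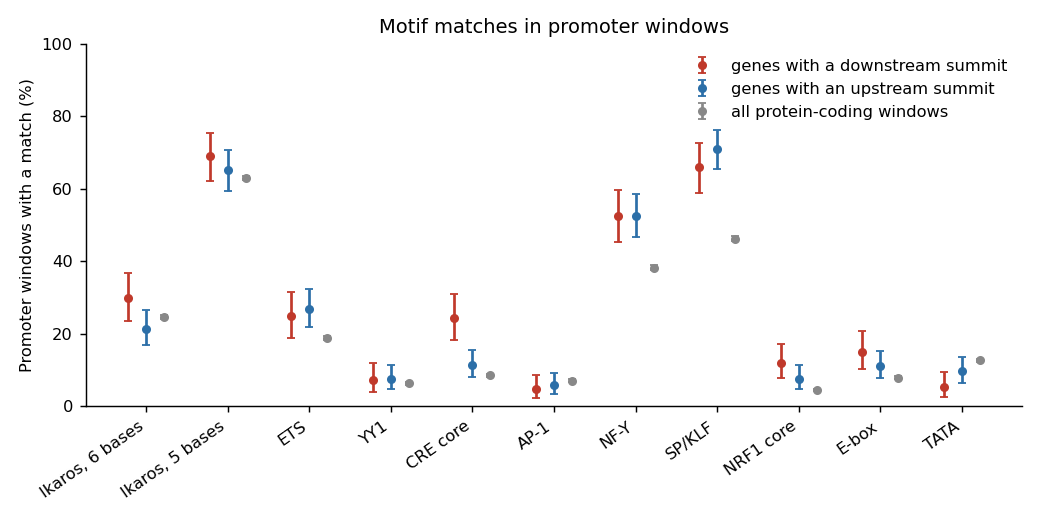
Share of RefSeq promoter windows with at least 1 match to each of 11 motifs, in percent (y axis), for genes with a downstream summit (red), with an upstream summit (blue) and for all protein-coding windows (grey), with exact 95% intervals. The CRE core stands at 24.2% downstream against 11.3% upstream and is the motif for which those 2 intervals do not overlap.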

How the data were processed

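CUT&RUN peaks of 1 Aiolos antibody library were used as deposited; no reads were used. The submitters' processing notes list mm10 and, without roles or order, Bowtie2 (as 1.3.0), SAMtools, Picard and MACS2. The authors' value of strength is the signal column, per the file headers, read here as MACS2's fold enrichment (a ratio with 1 added to both terms), and beside it the authors deposited the -log10 of the p-value and the q-value. The deposited score equals 10 times -log10 q, cut to a whole number. Library totals were not used here.

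The tags at each summit were solved from fold and p-value, as whole numbers under MACS2's Poisson model (largest error in -log10 p 1.75e-05), and give the exact Poisson intervals of single folds. Medians have order-statistic intervals and shares exact Clopper-Pearson intervals, all at 95%; they cover counting or sampling of peaks only, and tags may hold duplicates of a molecule. All 919 gene identifiers matched the RefSeq gene table (GRCm38.p6, 21900 protein-coding genes), which gave the biotypes; starts and sequences came from 32851 RefSeq promoter windows, with a start matched within 50 bp.

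Peaks of 1 list are not replicates, so no test was made. The members and the lists were chosen with earlier results of these data known. The named genes are the 15 strongest with ties, up to 3 of the highest per list, up to 8 genes with peaks on both sides, the 3 widest, the 3 farthest and those nearest the limit with ties; further list members, the same-start pairs, upstream list genes, genes of divergent pairs, non-coding members and genes with TGACGT were named after their values were seen. Solving, sides, intervals and motif search were tested on simulated data. The analysis used Python 3.11.15, NumPy 2.4.6, pandas 2.3.3 and SciPy 1.17.1.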

Additional observations from a re-analysis of the deposited data

How the results depend on the processing

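Alternatives were planned except those that use the nearest RefSeq start or TGACGT, which were chosen after seeing the data. Of 81 recomputed values, 70 kept their direction and stayed within the interval of the reported value, 9 moved outside it and 2 changed sign within it. Keeping the peaks whose -log10 q reached the median raised the median fold to 8.05 downstream and 8.08 upstream and turned their difference to -0.0058 on the log2 scale; keeping peaks above the median fold gave 8.07 and 8.20 and a difference of -0.023, since both filters act on strength. With pileup in place of fold, the medians were 9 and 8.5 tags, by construction of another unit. With the nearest RefSeq start of the gene, the share of downstream summits was 39.4% and their median position 142, over 770 peaks with such a start. GGGAA in place of TGGGAA gave 69.1% of downstream windows, since it is the shorter string. With the peak centre, 59 downstream peaks changed to the upstream side and 38 the other way. With a median of 9 tags, depth does not resolve the order of peaks of similar strength. No paired analysis was possible because each group holds a single library and no libraries were tested.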

Other observations

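The members were spread over the genome much like the other promoter peaks. Chromosome 11 held 49 downstream and 58 upstream peaks (12.1% and 11.3%) with 7.35% of protein-coding genes, and chromosome 7 held 46 and 61 (11.4% and 11.9%) with 9.27%. The X chromosome held 6 and 7 (1.48% and 1.36%) with 4.41% of protein-coding genes. The transcripts assigned to downstream peaks had a median length of 12450 bp (95% interval 10484 to 14369) beside 15874 bp (14369 to 18430) upstream.

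Fntb had a second downstream peak of 8.85-fold (4.66 to 15.6) at 61 from another start, on chr12:76765513-76765733. The nearest RefSeq start of Fntb on that strand lay 71878 bp farther on, and Churc1 starts within 1000 bp on the same strand.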
